A study of Mus musculus with 8 samples.

Results

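The genes described here carry long-chain fatty acids into and within cells: the transporters Slc27a1, Slc27a2, Slc27a3, Slc27a4 and Slc27a5, the scavenger receptor Cd36, and the intracellular fatty acid binding proteins Fabp1, Fabp2, Fabp4 and Fabp5. They were taken by gene symbol from the annotation of the bead array, which gave 11 probes for these 10 of 16593 named genes, among 25697 probes. The set was selected on normalized signals of this same comparison, above all the difference of Slc27a1 between the genotypes, so the differences between genotypes below are descriptions and support nothing. Liver RNA came from 8 male C3HeB/FeJ mice aged 21 weeks, 1 array per mouse. The labels give 4 of them as wild type and 4 as heterozygous for Jag1K295*/+, a constitutive allele of the Notch ligand gene Jag1, whereas the titles shorten the second group to "hom". No treatment, pooling or tissue-specific driver is named, and each array has its own mouse number. The heterozygotes were studied for Alagille syndrome, in which the liver has too few bile ducts. The comparison asks how liver transcripts of these adult mice differ from wild type.

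Fatty acid transport proteins of the Slc27 family sit in cell or organelle membranes and also act as acyl-CoA synthetases, so that an entering fatty acid is trapped as its CoA ester. Slc27a2 and Slc27a5 are the forms typical of hepatocytes, and Slc27a5 also activates bile acids for conjugation. Slc27a1 is best known from muscle and adipose tissue. Once inside, fatty acids are held in solution by binding proteins, of which Fabp1 is the liver form, Fabp2 the intestinal form, Fabp4 the form of adipocytes, macrophages and capillary endothelium, and Fabp5 the epidermal form. Many genes of the family are targets of the nuclear receptor Ppara, which acts as a heterodimer with retinoid X receptors.

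In these livers 5 of the 10 genes could be measured and 5 could not. Testing needed a detection p below 0.05 on 4 or more of the 8 arrays; this p is the chance of such a signal among the negative controls of an array. Of the 11 member probes 5 passed, those of Slc27a1, Slc27a2, Slc27a4 and Slc27a5 and 1 of 2 for Fabp5, as did 11412 of all 25697. Over all tested probes 0 of the 5 members were called at an adjusted p of 0.05 (limma, Benjamini-Hochberg), where the background was 0.00876%, and their adjusted p-values lay between 0.182 and 0.99961. At an unadjusted p under 0.05 there was 1, Slc27a1, against a background of 11.2% in either direction, 5.26% higher and 5.95% lower. Slc27a1 was also the 1 tested member whose groups did not overlap, with the heterozygotes higher, as for 3.15% of tested probes, and 6.25% did not overlap in either direction. The median log2 fold change was -0.03 over the tested members and 0.01 over all tested probes. In whole liver, fewer cells of a type and less RNA per cell cannot be told apart.

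Facts of the whole experiment bear on these values. Mean raw signals ran from 438 to 488 on wild-type and from 422 to 453 on heterozygous arrays, and correlations between arrays over the tested probes from 0.985 to 0.994. Heterozygous replicate 4 stood apart on the first principal component, at 24.3 against -12.3 to 6.90 on the other arrays, and leaving it out moved no member's log2 fold change by more than the spread between replicates. The mutated gene gave no check of the labels: the 1 probe of Jag1 had raw signals from 111 to 123 and a detection p of 0.301 or more throughout. Of the labelled tissue, 6 of 9 hepatocyte markers were tested, among them Ttr, Apoa1 and Cyp2e1 on 8 of 8 arrays, and their summed signal ran from 99684 to 102388 in wild type and from 98390 to 101950 in heterozygotes. Alb, Apob and Tat had no tested probe.

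**Figure D1:**
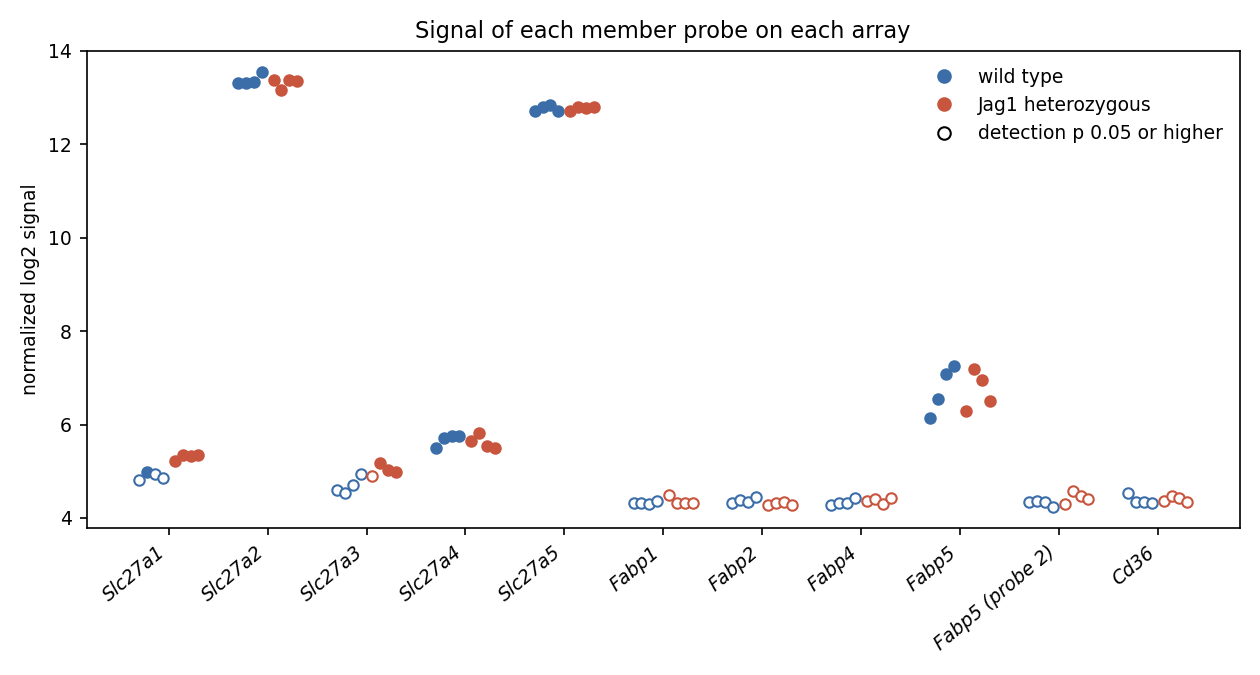
Normalized log2 signal (vertical axis) of each member probe (horizontal axis) on the 4 wild-type (blue) and 4 heterozygous (red) arrays, 1 point per array. Open points have a detection p of 0.05 or higher. Slc27a2 and Slc27a5 were detected on every array and showed little spread, Fabp5 scattered between 6.15 and 7.26, and the probes of Fabp1, Fabp2, Fabp4 and Cd36 had open points only.

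Slc27a1 was slightly higher in heterozygous liver, at the lower edge of what the arrays could read. Its raw signal was 128, 138, 140 and 136 in wild type against 137, 140, 143 and 143 in heterozygotes, so the raw signals of the groups overlapped. Its detection p was under 0.05 on 1 wild-type array, replicate 2, and on 4 of 4 heterozygous arrays, so it passed the filter through the heterozygotes. After background correction and quantile normalization its log2 signal was 4.81, 4.99, 4.94 and 4.85 in wild type and 5.22, 5.35, 5.32 and 5.34 in heterozygotes. On that scale the lowest heterozygous array lay above the highest wild-type array.

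The normalized means were 4.89 ± 0.08 (SD, n = 4) and 5.31 ± 0.06 (SD, n = 4), a difference of 0.42 ± 0.08 on the log2 scale (SE, limma) with an adjusted p of 0.182. The wild-type mean lay below 4.96, the mean over the wild-type arrays of the lowest log2 signal among detected probes. With each wild-type signal raised to at least that lowest signal of its array, the wild-type mean was 4.97. Under this processing the heterozygous mean was 1.26-fold above that level. This ratio is not a lower bound, because the difference was smaller in other settings. The array background was lower on average on the heterozygous arrays. The median raw signal of probes with a detection p between 0.45 and 0.55 was 116, 120, 122 and 120 in wild type against 116, 116, 117 and 117 in heterozygotes. Wild-type replicate 1, at 116, lay within the heterozygous range. The part of the background in the result was not tested. Above this background the Slc27a1 signal was 11.7, 18.4, 17.8 and 15.9 in wild type and 21.7, 24.0, 26.0 and 25.2 in heterozygotes. These values did not overlap. The share of all tested probes without overlap on this scale was not computed. On the normalized scale it was 3.15% with heterozygotes higher. Raw signals without overlap, heterozygotes higher, were seen for 0.114% of tested probes, Slc27a1 not among them. The 331 tested probes detected on 5 arrays, whichever these were, had a median difference of -0.01 on the log2 scale. Of these probes 2.72% were higher and 3.02% lower without overlap. They pool every pattern of detection, so they do not describe probes that passed the filter mainly through the heterozygotes.

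The size of the Slc27a1 difference rested on how background was handled. It was 0.11 without background correction, 0.21 with an offset of 50, 0.91 in the authors' processed table and 0.05 between the raw log2 signals, and its sign was the same in all of these. The groups stayed apart in the first 3 of these settings and with median scaling, and overlapped in the raw log2 signals. The share of all tested probes with groups apart was not computed for these 3 settings or for median scaling. Raw signals were not scaled between arrays: their median log2 difference over all tested probes was -0.08, against 0.01 after normalization. Markers of skeletal and heart muscle, where Slc27a1 is abundant, were tested for 0 of 9 genes, Ckm and Acta1 included. Of the adipocyte list 3 of 9 were tested, namely Pck1, Car3 and Lpl, while the defining genes Adipoq, Lep and Plin1 had no tested probe. The summed signal of the tested genes ran from 16882 to 18059 in wild type and from 15744 to 19456 in heterozygotes. This sum mostly followed Car3, whose wild-type mean was 13.96 on the log2 scale, against 10.39 for Lpl and 6.69 for Pck1. It is therefore no measure of adipose RNA. Pck1 and Lpl were higher in heterozygotes at an unadjusted p under 0.05, as were 5.26% of tested probes, and Car3 was at -0.11 on the log2 scale. Whether adipose or muscle RNA had a part in the Slc27a1 values was not tested.

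**Figure D2:**
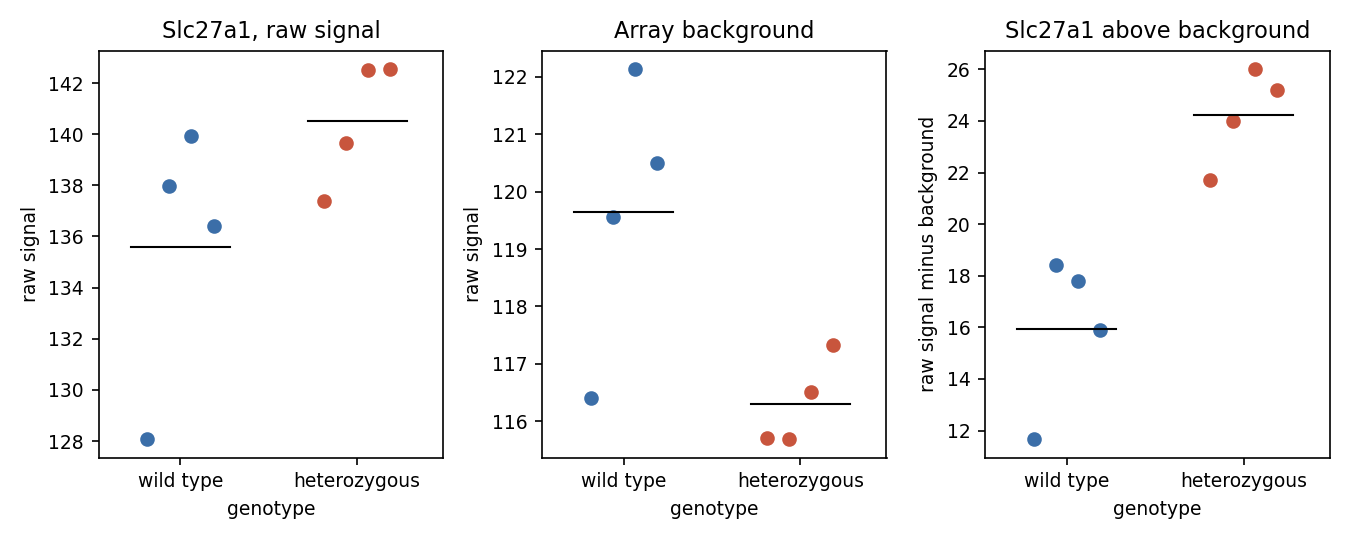
Raw signal of the Slc27a1 probe (left), array background (middle; median raw signal of probes with detection p between 0.45 and 0.55) and their difference (right), 1 point per array with the group mean as a line. Vertical axes do not start at 0. The raw signals overlap, and the background is lower on average on the heterozygous arrays. The differences, 11.7 to 18.4 in wild type and 21.7 to 26.0 in heterozygotes, do not overlap. The share of all tested probes without overlap on that last scale was not computed.

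Slc27a3, a family member with strong acyl-CoA synthetase activity, lay just outside the detection filter and Slc27a1 just inside it. Its detection p was under 0.05 on 0 of 4 wild-type and 3 of 4 heterozygous arrays. The log2 signals were 4.59, 4.53, 4.71 and 4.93 in wild type and 4.90, 5.18, 5.02 and 4.98 in heterozygotes, so the highest wild-type array, replicate 4, lay just above the lowest heterozygous array. The means were 4.69 ± 0.18 (SD, n = 4) and 5.02 ± 0.12 (SD, n = 4). Since wild type was not well above background, its fold cannot be read in full. Under this processing the heterozygous mean was 1.04-fold higher, measured against the lowest signal among detected probes of each wild-type array.

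Promoters of the members are shown because Slc27a1 and Slc27a3 both had the higher mean in heterozygotes and because Slc27a2 and Fabp1 are the hepatocyte genes of the set. Sequences are RefSeq's for the build GRCm38.p6, 250 bases before and 50 from the transcription start, read 5′ to 3′ along the gene. The table holds 9 promoters for 7 of the 10 genes, 3 of them for alternative starts of Slc27a1, of which the one with the most matches is printed. Capitals mark matches on either strand to a pair of AGGNCA 1 base apart, the direct repeat bound by Ppara with its partner, to its core AGGTCA, which can overlap it, to TATAAA, to the E-box CACGTG and to the GC box GGGCGG. Slc27a1 is shown at chr8:71570344-71570643 (plus strand), Slc27a3 at chr3:90389889-90390188 (minus strand), Slc27a2 at chr2:126552774-126553073 (plus strand) and Fabp1 at chr6:71199629-71199928 (plus strand).
Slc27a1: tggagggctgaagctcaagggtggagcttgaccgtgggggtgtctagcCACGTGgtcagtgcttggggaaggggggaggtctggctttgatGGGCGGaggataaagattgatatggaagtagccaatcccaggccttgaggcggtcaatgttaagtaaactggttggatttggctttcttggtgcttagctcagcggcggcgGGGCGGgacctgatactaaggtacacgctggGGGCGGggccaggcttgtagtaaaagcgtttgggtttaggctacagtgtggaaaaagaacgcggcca
Slc27a3: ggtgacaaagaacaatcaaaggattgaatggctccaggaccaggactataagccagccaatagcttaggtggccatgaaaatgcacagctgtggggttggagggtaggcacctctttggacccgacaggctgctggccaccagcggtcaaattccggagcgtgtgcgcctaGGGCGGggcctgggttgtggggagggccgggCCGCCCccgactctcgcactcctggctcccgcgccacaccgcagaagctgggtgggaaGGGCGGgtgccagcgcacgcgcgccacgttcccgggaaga
Slc27a2: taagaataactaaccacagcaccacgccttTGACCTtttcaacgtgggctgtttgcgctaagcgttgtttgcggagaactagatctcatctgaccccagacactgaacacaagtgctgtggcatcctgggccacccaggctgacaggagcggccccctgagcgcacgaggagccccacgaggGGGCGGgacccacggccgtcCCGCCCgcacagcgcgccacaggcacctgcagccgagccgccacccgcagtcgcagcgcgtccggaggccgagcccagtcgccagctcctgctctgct
Fabp1: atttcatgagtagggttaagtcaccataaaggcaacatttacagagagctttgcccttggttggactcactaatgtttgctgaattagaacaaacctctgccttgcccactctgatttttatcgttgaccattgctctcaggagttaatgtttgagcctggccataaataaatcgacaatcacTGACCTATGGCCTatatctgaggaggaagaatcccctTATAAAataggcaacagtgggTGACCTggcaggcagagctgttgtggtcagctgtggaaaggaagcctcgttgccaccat
The Slc27a1 window held the E-box at -202 to -197 and GC boxes starting at -159, -48 and -17, and the Slc27a3 window held GC boxes starting at -79, -48 and 11. Of the other Slc27a1 windows, that starting at 71569347 held a GC box at -139 and no E-box, and that starting at 71568621 held none of the motifs. The E-box was found in 7.15% and the GC box in 35.7% of all 32851 promoters of the table. Of the 9 member promoters 6 held the GC box. Fabp1 was the 1 member promoter with the direct repeat, at -67 to -55, which occurred in 0.381% of all promoters, and with the TATA motif, at -30 to -25, which occurred in 13.6%. The AGGTCA core was in 3 member promoters, those of Fabp1, Slc27a2 and Cd36, and in 16.3% of all. A match describes these letters and is not a binding site.

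Slc27a4, a transporter of broad expression that is best known from intestine and skin, differed by less than the spread between replicates. Its log2 signals were 5.49, 5.71, 5.75 and 5.75 in wild type and 5.65, 5.82, 5.54 and 5.49 in heterozygotes. Wild-type replicate 1 was low within its group and the groups overlapped throughout. The log2 fold change was -0.05 ± 0.10 (SE, limma), with a 95% interval of the fit from -0.27 to 0.17. Slc27a4 was detected on 8 of 8 arrays.

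Slc27a2, the very long-chain acyl-CoA synthetase and transporter of hepatocyte peroxisomes and endoplasmic reticulum, differed by less than the spread between replicates. Its log2 signals were 13.30, 13.32, 13.33 and 13.54 in wild type and 13.38, 13.15, 13.38 and 13.36 in heterozygotes. Wild-type replicate 4 was the highest array and heterozygous replicate 2 the lowest, and the other 6 lay within the range from 13.30 to 13.38. The log2 fold change was -0.05 ± 0.09 (SE, limma; 95% interval -0.25 to 0.14), and without wild-type replicate 4 it was 0.001. Without heterozygous replicate 2 it was also 0.001.

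Slc27a5, which activates long-chain fatty acids and recycled bile acids in hepatocytes, had the smallest difference of the tested members. Its log2 signals were 12.72, 12.80, 12.84 and 12.72 in wild type and 12.72, 12.80, 12.78 and 12.79 in heterozygotes. Every heterozygous array lay inside the wild-type range. The means were 12.77 ± 0.06 (SD, n = 4) and 12.77 ± 0.03 (SD, n = 4), a log2 fold change of -0.0003 ± 0.07 (SE, limma) with a 95% interval from -0.16 to 0.16. With median scaling in place of quantile normalization it was -0.08.

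**Figure D3:**
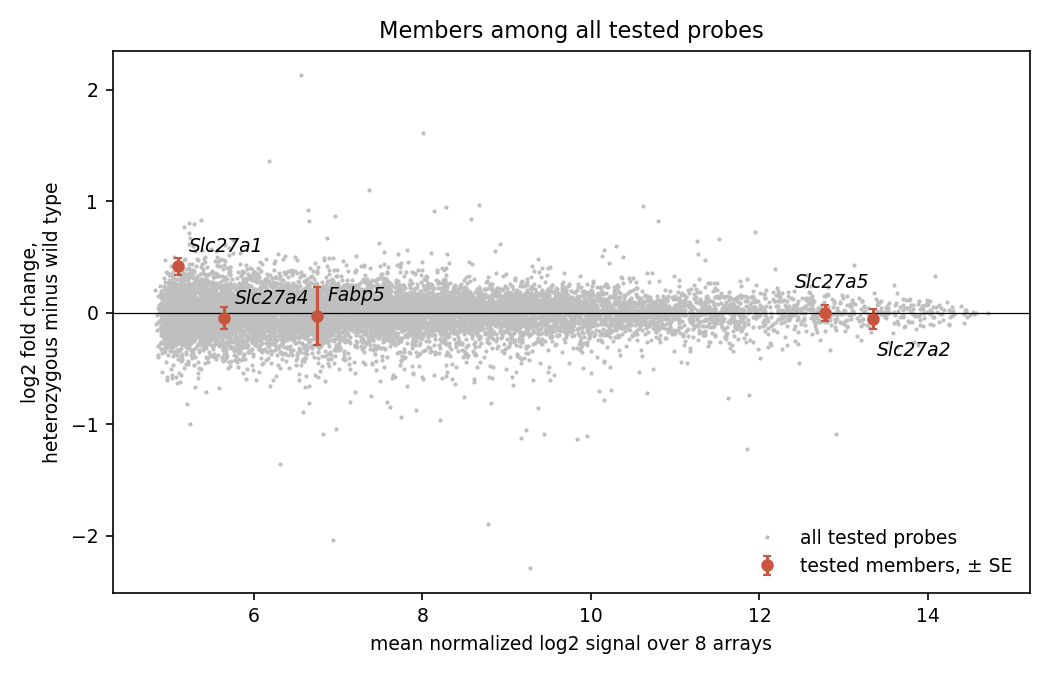
Log2 fold change, heterozygous minus wild type, against mean normalized log2 signal for all 11412 tested probes (grey), with the 5 tested members and their SE in red. Slc27a1, at 0.42, lies above 0 at the dim end, and the other 4 members lie between -0.05 and 0.

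Conjugation is the step that follows Slc27a5 in bile acid recycling. Of the 9 genes listed for bile acid side-chain oxidation and conjugation, 8 were tested, 0 were called in limma in either direction and 0 had an unadjusted p under 0.05, with a median log2 fold change of 0.01. Baat, which joins bile acyl-CoA to taurine or glycine, had a log2 fold change of 0.10 ± 0.11 (SE), the peroxisomal oxidase gene Acox2 had 0.04 ± 0.08 (SE), and the racemase gene Amacr had 0.02 ± 0.11 (SE).

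Cd36, a surface receptor that takes up long-chain fatty acids and is known as a target of Ppara, Pparg and other nuclear receptors in liver, was not measurable here. Its 1 probe had raw signals from 112 to 121 and detection p-values from 0.281 to 0.878, above 0.05 on 8 of 8 arrays. The normalized log2 signal ran from 4.33 to 4.53 in wild type and from 4.34 to 4.48 in heterozygotes, and such values carry no fold.

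The binding proteins Fabp1, Fabp2 and Fabp4 were likewise at background on every array. Fabp1, known as one of the most abundant hepatocyte transcripts, had raw signals from 109 to 118 and detection p-values from 0.368 to 0.967 on its 1 probe, in RNA with Ttr, Apoa1 and Cyp2e1 detected on every array. Why this probe gave no signal was not tested, and its values say nothing about Fabp1 itself. Fabp2 had raw signals from 106 to 122 and Fabp4 from 108 to 120. Of the intestinal markers 2 of 9 were tested, Apoa4 and Anpep, each detected on 8 of 8 arrays, while Vil1 and Sis had no tested probe. Of the adipose markers, Adipoq and Plin1 had none, while Pck1, Car3 and Lpl were tested.

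Fabp5, which delivers fatty acids to nuclear receptors and is expressed in skin, macrophages and endothelium as well as in liver, was the binding protein that could be read. By the detected probe its log2 signals were 6.15, 6.54, 7.09 and 7.26 in wild type and 6.28, 7.19, 6.94 and 6.50 in heterozygotes. The arrays of both genotypes were spread over the same range, more than a log2 unit wide. The means were 6.76 ± 0.51 (SD, n = 4) and 6.73 ± 0.41 (SD, n = 4), a log2 fold change of -0.03 ± 0.26 (SE, limma) with a 95% interval from -0.60 to 0.54. The second Fabp5 probe was at background, with raw signals from 107 to 121, so the spread rests on 1 probe.

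The members differed widely in how much they varied between mice of 1 genotype, a measure that does not use the difference between genotypes. The SD within groups was 0.46 log2 units for Fabp5, larger than for 99.0% of tested probes, and 0.05 for Slc27a5, larger than for 1.67%. Slc27a2, at 0.11, exceeded 26.8% and Slc27a4, at 0.13, exceeded 41.1%. The place of Fabp5 held under other scalings, from 97.8% without background correction to 99.3% with median scaling. That of the transporters did not: Slc27a2 exceeded 75.5% of probes without background correction, and Slc27a5 exceeded 9.45% with median scaling and 11.3% without background correction.

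**Figure D4:**
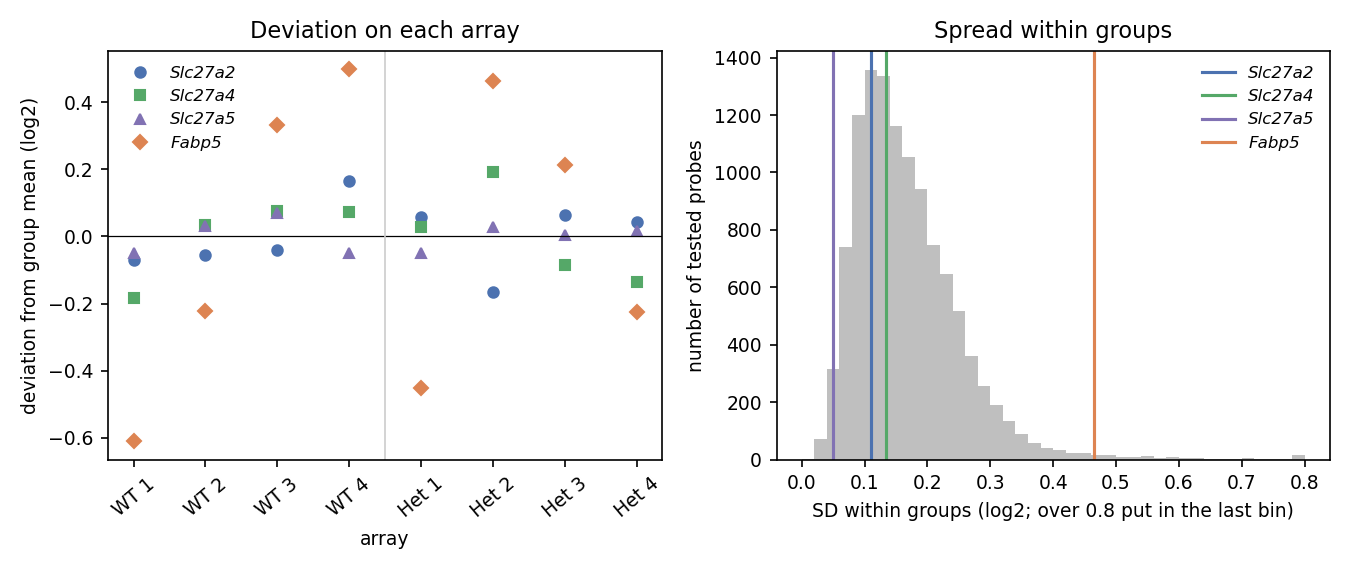
Left: deviation of each array from its group mean (log2) for the 4 members detected on all 8 arrays. Right: SD within groups of all 11412 tested probes, with the same members as vertical lines. Fabp5 deviates by up to 0.61 log2 units and has an SD of 0.46, and Slc27a5, at 0.05, lies at the narrow end.

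Whether the 4 members detected on all arrays varied together was tested on these deviations, over 6 pairs, with exact two-sided permutation within the groups and Benjamini-Hochberg adjustment over the pairs. The closest pair was Slc27a4 and Fabp5, with Pearson r = 0.68 (exact permutation p = 0.104, adjusted 0.625, n = 8) and Spearman rho = 0.81 (exact permutation p = 0.0347, adjusted 0.208). Without the 2 arrays farthest from the median of Slc27a4, r was 0.39, and within the groups it was 0.88 in wild type and 0.49 in heterozygotes. Slc27a2 and Slc27a5, the hepatocyte transporters, had r = -0.49 (exact permutation p = 0.257, adjusted 0.734, n = 8) and rho = -0.41 (exact permutation p = 0.420, adjusted 0.779). For the other 4 pairs r ranged from -0.24 to 0.41 (lowest exact permutation p = 0.372, adjusted 0.734). None of the 6 pairs passed the adjustment at a threshold of 0.05.

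The probes whose deviations over the 8 arrays were most like those of Slc27a1, among 10756 named probes of other genes, were those of Itih5 (r = 0.97), Ubqln1 (r = 0.96) and Zfp954 (r = 0.95). With 21 probes above r = 0.9 and Slc27a1 detected on 5 arrays, this is a description of these arrays. Cd36 had no tested probe and was not compared.

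Among the other genes of fatty acid handling 0 were called in either direction. Fatty acid activation by acyl-CoA synthetases and its reversal by thioesterases had 14 of 15 genes tested, 3 above 0 and 11 below, a median of -0.10 and 0 with an unadjusted p under 0.05 in limma. Acsl3 had a log2 fold change of -0.12 ± 0.13 (SE), Acsl4 of 0.23 ± 0.14 (SE) and Acsl5, a synthetase of liver and intestine, of -0.10 ± 0.09 (SE). The other lipid binding proteins had 8 of 18 genes tested and a median of -0.02, with 1 lower at an unadjusted p under 0.05. Over all tested probes 5.95% were lower at that threshold and 11.2% passed it in either direction. The ileal bile acid binding protein gene Fabp6 was at -0.02 ± 0.09 (SE), the acyl-CoA binding protein gene Dbi at 0.02 ± 0.07 (SE) and Acbd3 at -0.07 ± 0.07 (SE). Less bright probes gave -0.13 ± 0.08 (SE) for Dbi, and 0.05 ± 0.13 (SE) and -0.02 ± 0.17 (SE) for Acsl4.

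Other routes of uptake had 9 of 14 genes tested and a median of 0.09. At an unadjusted p under 0.05 in limma 1 was higher and 2 lower, beside 5.26% and 5.95% of all tested probes. The higher gene was Lpl, encoding the lipase that frees fatty acids from circulating triglyceride, with log2 signals from 9.85 to 10.96 in wild type and from 10.61 to 11.88 in heterozygotes, which overlapped. Its difference was 0.82 ± 0.29 on the log2 scale (SE; adjusted p = 0.372 in limma). Got2, whose product was described as a plasma membrane fatty acid binding protein, was at -0.01 ± 0.09 (SE), and the caveolin gene Cav1 at 0.09 ± 0.14 (SE).

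Most tested targets of Ppara lay below 0, and none was called. Of 27 Ppara target genes 20 were tested, 4 above 0 and 16 below, with a median log2 fold change of -0.14 beside 0.01 over all tested probes, and 4 were lower and 0 higher at an unadjusted p under 0.05 in limma, beside 5.95% and 5.26% of all tested probes. The oxidation genes Acadm and Cpt2 were at -0.003 ± 0.07 (SE) and -0.03 ± 0.08 (SE), and Acadl was at -0.49 ± 0.11 (SE; limma adjusted p = 0.229), with the groups apart. These values are for the brightest probe of each gene, and a second tested probe of Acadm and of Acadl read otherwise: for Acadm it was at -0.44 ± 0.12 (SE; limma adjusted p = 0.296) with the groups apart, and for Acadl at 0.13 ± 0.11 (SE; limma adjusted p = 0.666) with overlap. Of 21 regulators 16 were tested, with a median of -0.08, and 1 was higher and 3 lower at an unadjusted p under 0.05. Ppara itself had log2 signals of 6.55, 6.92, 6.84 and 6.93 in wild type against 6.52, 6.68, 6.32 and 6.10 in heterozygotes, a difference of -0.40 ± 0.13 (SE; adjusted p = 0.354 in limma) with overlapping groups, and its coactivator genes Ppargc1a and Ppargc1b were at -0.11 ± 0.16 (SE) and -0.13 ± 0.16 (SE). These lists were chosen with earlier results of these data known and overlap in genes such as Angptl4 and Acot1.

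**Figure D5:**
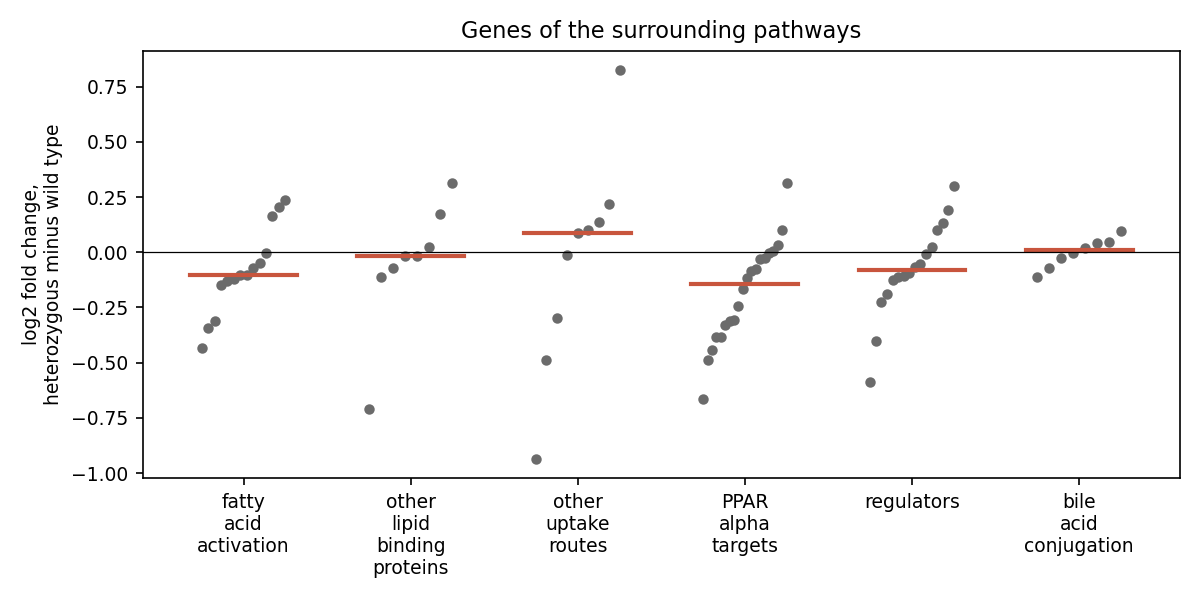
Log2 fold change, heterozygous minus wild type, of each tested gene (grey points, 1 probe per gene) in 6 lists of genes around fatty acid transport, with the median of each list in red. Medians run from -0.14 for Ppara targets to 0.09 for other uptake routes, and 0 genes were called.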

How the data were processed

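RNA of 8 livers was read on Illumina bead arrays. The authors deposited non-normalized signal intensity and a detection p-value per probe, per the file headers, from GenomeStudio 2011.1 per the submitters' processing notes. Their processed table, intensity on a linear scale with values below 0 (8442 to 8454 per array), was an alternative only; how it was made is not given in the sources used here. Signals were background-corrected with nec of limma 3.58.1 (R 4.3.3, offset 16), quantile normalized and taken as log2. The size of the difference of a dim probe such as that of Slc27a1 depends on the background correction and the offset. Probes with a detection p under 0.05 on at least 4 arrays were tested with limma, two-sided, with Benjamini-Hochberg adjustment over 11412 probes. The brightest tested probe stood for a gene. Symbols came from GEO's platform annotation (23978 probes with 1 symbol, 0 with several, 1719 with none; 0 updated through RefSeq). All 10 members were named, and of each list the first 3 tested genes plus any called. Members and lists were chosen with earlier results of these data known. Only the limma step was tested on simulated data, drawn around the normalized means of the tested probes. Background correction, normalization, the detection filter, the permutations and the motif search were not simulated. The number of arrays limits the precision, and no chip or hybridisation batch is named.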

Additional observations from a re-analysis of the deposited data

Results flagged for a closer look

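An array lay far from the other 3 of its group in 4 of 52 sets of 4 values, 1 set per group for each tested member, list gene described above or array measure, where chance alone puts about 1 in 20. For Slc27a2, wild-type replicate 4 had a log2 signal of 13.54, against 13.30 to 13.33, and heterozygous replicate 2 had 13.15, against 13.36 to 13.38. For Slc27a4, wild-type replicate 1 had 5.49, against 5.71 to 5.75. For Got2, wild-type replicate 3 had 13.07, against 13.35 to 13.40.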

How the results depend on the processing

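The member probes gave 0 calls in all 19 alternatives. Calls among all probes, 1 here, were 0 without background correction, 0 without the filter, 0 with the replicate number as a block, and 0 to 7 with an array left out (0 without wild-type replicate 4 and without heterozygous replicate 3, 2 without heterozygous replicate 2, 7 without heterozygous replicate 1). The log2 fold change of Slc27a1, 0.42, was 0.11 without background correction, 0.21 with an offset of 50, 0.91 in the processed table and, in a setting chosen after seeing the data, 0.052 in raw log2 signals; it ran from 0.39 to 0.45 with an array left out. Its limma adjusted p ran from 0.135 to 0.519 where it was tested. With a detection p under 0.01 required on all 8 arrays, 4 member probes were tested and Slc27a1 was not among them. With the replicate block the log2 fold change of Slc27a1 was 0.42 (limma adjusted p = 0.247). Same-numbered arrays had correlations of deviations of -0.07, 0.13, 0.10 and 0.08. Differently numbered arrays were not compared in this way, so whether the numbers mark a shared batch was not tested. No correlation between members passed under either scaling tried. The block by BeadChip was not run, because no chip is named. Signal over background limits Slc27a1, Slc27a3 and Slc27a4.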

Other observations

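The wide spread of Fabp5 was set against the marker lists of 4 cell types with at least 3 tested genes, a comparison chosen after the spread was seen. Over the deviations from the group means, Pearson r with the mean of 10 macrophage markers was -0.71 (exact permutation within groups, p = 0.0729, adjusted over 4 lists 0.292, n = 8) and rho was -0.69 (exact permutation p = 0.0764, adjusted 0.306). Without the 2 arrays on which Fabp5 lay farthest from its group mean, r was -0.75. Within the groups r was -0.85 in wild type and -0.68 in heterozygotes. Of the 10 genes 7 had a negative r, down to -0.91 for the complement gene C1qc. For endothelial markers r was -0.48 (exact permutation p = 0.243, adjusted 0.486, n = 8), with -0.99 in wild type, -0.06 in heterozygotes and 9 of 11 genes negative. For hepatocyte markers r was 0.25 (exact permutation p = 0.519, adjusted 0.692). For the 3 tested genes of the adipocyte list, Pck1, Car3 and Lpl, r was 0.04 (exact permutation p = 0.943, adjusted 0.943). The mean of these 3 genes is no measure of adipose RNA. No list passed the adjustment. The summed macrophage markers ran from 1902 to 2555 in wild type and from 1524 to 2181 in heterozygotes. The probes most like Fabp5 over the 8 arrays, of 10756 compared, were those of Nampt (r = 0.97), Dcun1d4 (r = 0.97) and Slc20a1 (r = 0.96), with 40 above r = 0.9.

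Several genes outside the naming rule, chosen after their values were seen, had an unadjusted p under 0.05 and no call in limma. Over all tested probes 11.2% had an unadjusted p under 0.05. Acbd5, encoding a peroxisomal acyl-CoA binding protein, had a log2 fold change of -0.71 ± 0.22 (SE; adjusted p = 0.316). Mfsd2a, encoding a transporter of lysophospholipids that carry fatty acids, was at -0.93 ± 0.32 (SE; adjusted p = 0.359), and the lipoprotein receptor gene Lsr at -0.30 ± 0.10 (SE; adjusted p = 0.337). The lipid droplet gene Plin2 was at -0.38 ± 0.16 (SE; adjusted p = 0.429). In the other direction, the retinoid X receptor gene Rxrb, whose product is a partner of Ppara, was at 0.30 ± 0.10 (SE; adjusted p = 0.337) with the groups apart, and its less bright probe was at 0.12 ± 0.10 (SE; adjusted p = 0.671) with overlap. The gluconeogenesis gene Pck1 was at 0.49 ± 0.20 (SE; adjusted p = 0.423).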
